A study of Homo sapiens with 4 samples.

Results

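Solute carrier (SLC) genes were described in the RNA that a pull out of miR-28-5p brought down from prostate cancer cells. The members were the NM_ (RefSeq mRNA) transcripts with an SLC gene symbol that had the Cufflinks status OK in all 4 libraries and a mean FPKM of at least 0.5, where FPKM is sequenced fragments scaled to transcript length and to the total of mapped reads. They were thus selected on their mean level over all 4 libraries, a value that does not use the contrast between the arms. Of 834 SLC transcripts of 378 genes in the files, 259 transcripts of 178 genes were members, out of 15649 transcripts and 10517 genes tested in all. Of the other 200 SLC genes, 103 were listed at 0 in all 4 libraries and 97 had a value above 0 but no transcript at the minimum, although the sum over transcripts reached it in 7 of these. The transcripts just outside the minimum were of SLC67A1 (mean FPKM 0.492), SLC9A8 (0.488) and SLC4A8 (0.486), and among those just inside was one of SLC41A3 (0.516).

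The libraries came from DU-145, an androgen-independent prostate cancer cell line derived from a brain metastasis, transfected with 60 nM of a miR-28-5p duplex. In the miR-28CT arm, the control for background RNA (2 libraries), the duplex carried no tag. In the miR-28BIO arm (2 libraries) it was a mix of duplexes tagged with biotin at the 3′ end, with a thiouridine at nucleotide 8 or at nucleotide 18, bases that cross-link to paired RNA under UV. Both arms were irradiated (365 nm, 2 J/cm2) 24 h after transfection, and 15 μg of RNA was taken through streptavidin beads before sequencing of 50-base reads. All cells thus received miR-28-5p, and the arms differed in whether it could be pulled down, so that a value is a level in bead-recovered RNA and not in the cell. More capture and more transcript in the cell cannot be told apart from these libraries. The epithelial markers EPCAM, KRT8, KRT18 and CDH1 were above 0 in every library (summed FPKM 61.1 to 119 in miR-28CT and 35.7 to 64.8 in miR-28BIO), the androgen-dependent luminal markers KLK3 and TMPRSS2 were listed at 0 in all 4, and of the blood and stromal markers only COL1A1 was above 0, at 0.110 to 0.178.

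SLC genes code for membrane carriers that move ions, metals, sugars, amino acids, nucleotides, vitamins and drugs across the plasma membrane and the membranes of organelles, each family numbered by sequence relation. Unlike pumps, which spend ATP directly, most carriers use a gradient of the substrate or of a coupled ion. Several are studied in prostate tissue and in cancer cells, among them the zinc carriers of the SLC30 and SLC39 families, the lactate carriers of SLC16, the glucose carrier SLC2A1 and the amino acid carriers SLC7A5, SLC7A11 and SLC1A5. A miRNA pairs with mRNA mainly through its seed, the bases from nucleotide 2 to nucleotide 8, often in the 3′UTR.

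Sequences are shown because the question of the assay is which mRNAs pair with the miRNA. The seed of miR-28-5p is shared with miR-708-5p, whose mature sequence in RefSeq (GRCh38.p14) follows with nucleotides 2 to 8 in capitals.

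miR-708-5p: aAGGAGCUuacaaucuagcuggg

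The motif AGCTCCT, which would pair with these nucleotides, was searched on the sense strand of 1 GENCODE 44 canonical transcript per gene (hg38), with the shorter GCTCCT, which pairs with nucleotides 2 to 7 and lies within it. The 3 members in the study's targetome, its list of transcripts enriched in the pull out, hold the 7-base motif in the following windows of 30 bases, in capitals. The sites are in the last exon of SLC31A2 (3′UTR, exon 4 of 4, chr9:113163679-113163685, plus strand), in the last exon of SLC75A1 (3′UTR, exon 13 of 13, chr4:2930690-2930696, minus strand) and in the coding sequence of SLC35D1 (exon 1 of 12, chr1:67053854-67053860, minus strand).

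SLC31A2: ctgatagactgAGCTCCTtccaccagaagg

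SLC75A1: gaagctcaggcAGCTCCTccagacttactt

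SLC35D1: tttacggcgtgAGCTCCTtcctgatcgtgg

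FPKM were summed per gene, scaled between libraries and compared as log2 fold changes of miR-28BIO over miR-28CT. Across the 178 genes the median log2 fold change was −0.00 (quartiles −0.39 and 0.40, from −1.53 to 3.01), against −0.08 over all tested genes. With FPKM as deposited the median of all genes moved up by 0.16 log2 units, to 0.08, and that of the SLC genes to 0.17. In limma without pairing, 0 of 178 SLC genes were called at a Benjamini-Hochberg adjusted p of 0.05 (0% of all tested genes), with 4 higher (2.25%, against 2.29% of all tested genes) and 1 lower (0.562%, against 0.732%) at an unadjusted p under 0.05. Of the 259 transcripts 0 were called as well (0% of all tested transcripts), with 3 higher (1.16%, against 2.09% of all tested transcripts) and 7 lower (2.70%, against 1.50%) at an unadjusted p under 0.05. With 2 libraries against 2, an exact two-sided permutation test of 1 gene cannot go below p = 0.333.

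With the replicate number as a block, which compares libraries of the same number, limma called 5 SLC genes higher and 2 lower in miR-28BIO. These were 2.81% and 1.12% of the members, against 2.51% and 2.01% of all tested genes, so the shares were near the background. The block fit without limma's trend of variance on level called none of the 178 (smallest adjusted p = 0.140) and none of all tested genes, and the calls thus rest on that setting as well as on the pairing.

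Both miR-28BIO libraries lay above both miR-28CT libraries, after scaling, in 30 genes (16.9%, against 12.4% of all tested genes) and below them in 17 (9.55%, against 12.8%). The arms overlapped in 131 (73.6%, against 74.8%). With FPKM as deposited these counts were 34 (19.1%, against 15.6% of all tested genes) and 11 (6.18%, against 8.56%), so that the shares of all genes moved the same way. A gap of at least 2-fold was left in 3 genes above (2.20% of all tested genes) and in 1 below (0.818% of all tested genes). By replicate pair, 62 genes were higher in miR-28BIO in both pairs (34.8%, against 30.7% of all tested genes) and 60 were lower in both (33.7%, against 39.9%). In 53 the pairs were of opposite sign (29.8%, against 28.1%).

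**Figure D1:**
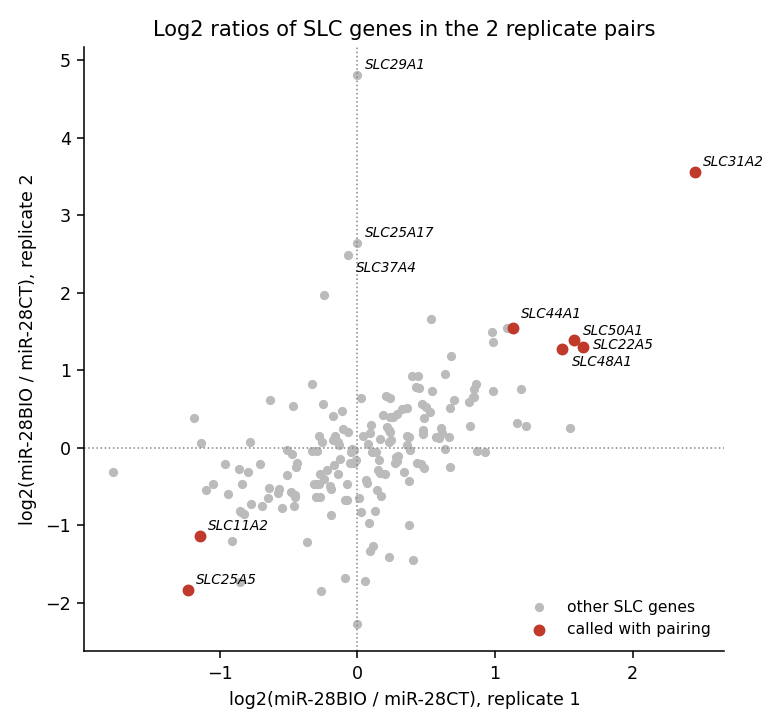
Each point is 1 of 178 SLC genes, with the log2 ratio of miR-28BIO to miR-28CT in replicate 1 (horizontal axis) and in replicate 2 (vertical axis), and the 7 genes called with the replicate block are in red. SLC31A2 lies alone at the upper right (2.46 and 3.56), and SLC29A1 is high in replicate 2 only.

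The largest log2 fold change was that of SLC31A2 (chr9:113151007-113164140), a copper carrier of endosomes and lysosomes. Its FPKM was 0.859 and 1.81 in the miR-28CT libraries and 5.15 and 28.6 in the miR-28BIO libraries (replicates 1 and 2). Both miR-28BIO values were above both controls, by 2.46 log2 units in pair 1 and 3.56 in pair 2. The scaled means were 1.47 ± 0.94 and 15.6 ± 15.1 (SD, n = 2), and the log2 fold change of 3.01 had a standard error of 0.32 with the block (limma adjusted p = 0.0394) and 1.01 without it (adjusted p = 1.00). Standard errors here and below are limma's moderated ones, which share variance across all tested genes. They do not measure the spread between the 2 pairs of a single gene. The SLC31A2 value rested on an estimated 27.3 and 41.6 reads in miR-28CT and 158 and 740 in miR-28BIO. The gene has a single tested transcript, in the targetome of the study, which was chosen on these libraries, so the list is not independent evidence of its direction.

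SLC35D1, a carrier of UDP-sugars into the endoplasmic reticulum, is the second targetome member. Its FPKM was 3.70 and 2.71 in miR-28CT and 7.91 and 10.3 in miR-28BIO, with the arms more than 2-fold apart. The log2 fold change was 1.31, with a standard error of 0.20 with the block and 0.42 without it. The limma adjusted p with the block was 0.0522, and it was 0.0181 with the block and FPKM as deposited and 0.0468 with the block and upper-quartile scaling, so that the gene was called in 2 of the 6 block fits. SLC75A1, listed in the targetome under its older symbol MFSD10, is a carrier of the major facilitator type. Its FPKM was 3.49 and 30.6 in miR-28CT and 5.61 and 88.6 in miR-28BIO, so that both replicate 2 libraries were above both replicate 1 libraries and the arms overlapped. Its log2 fold change was 0.93, with a standard error of 0.20 with the block (limma adjusted p = 0.0815) and 1.81 without it. Without miR-28CT replicate 1 it was −1.03 and without miR-28CT replicate 2 it was 2.89.

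**Figure D2:**
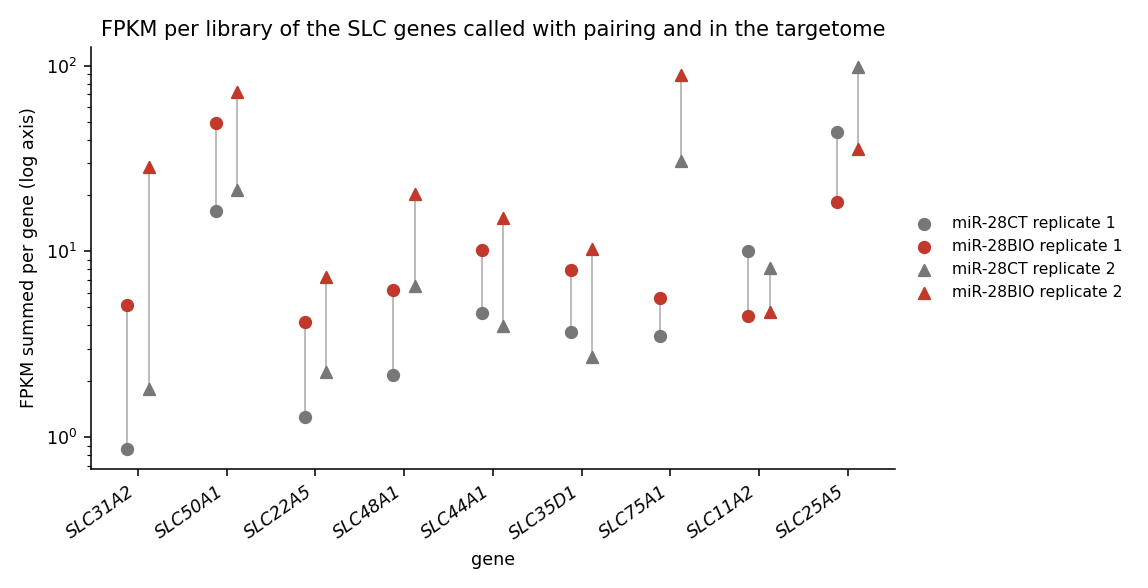
FPKM summed per gene on a log axis for the 7 SLC genes called with the replicate block and the other 2 targetome members, with miR-28CT in grey and miR-28BIO in red, circles for replicate 1, triangles for replicate 2 and a line joining libraries of the same number. The miR-28BIO point is the upper end of both lines in SLC31A2, SLC50A1, SLC22A5, SLC48A1, SLC44A1, SLC35D1 and SLC75A1, and the lower end of both in SLC11A2 and SLC25A5.

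4 further genes were higher in miR-28BIO with the block. SLC50A1, a sugar carrier, had FPKM of 16.6 and 21.4 in miR-28CT and 49.2 and 71.7 in miR-28BIO, and its log2 fold change was 1.48 (SE 0.17 with the block, limma adjusted p = 0.0440). SLC22A5, the sodium-coupled carnitine carrier, had 1.28 and 2.25 in miR-28CT and 4.18 and 7.26 in miR-28BIO (log2 fold change 1.47, SE 0.20, adjusted p = 0.0481). In these 2 genes, as in SLC44A1, both miR-28BIO libraries were above both controls.

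SLC44A1, a choline carrier, had FPKM of 4.65 and 3.98 in miR-28CT and 10.2 and 15.1 in miR-28BIO. The log2 fold change was 1.34 (SE 0.19 with the block, limma adjusted p = 0.0491), and the arms were more than 2-fold apart. SLC48A1, a heme carrier of endosomes and lysosomes, had 2.15 and 6.52 in miR-28CT and 6.19 and 20.4 in miR-28BIO. Its arms overlapped, since the replicate 2 control was above the replicate 1 pull out, and the call (log2 fold change 1.38, SE 0.18, adjusted p = 0.0470) rests on the pairing.

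Both genes that were lower with the block had separated arms. SLC25A5, the ADP/ATP carrier of the inner mitochondrial membrane, fell by 1.53 on the log2 scale (SE 0.22 with the block, limma adjusted p = 0.0487), from FPKM of 43.7 and 98.9 in miR-28CT to 18.5 and 35.5 in miR-28BIO. SLC11A2, a proton-coupled carrier of ferrous iron, fell by 1.14 (SE 0.17, limma adjusted p = 0.0491, and 0.0734 with FPKM as deposited), from 10.1 and 8.15 to 4.47 and 4.70, with a gap of over 2-fold. SLC11A2 has 3 tested transcripts. NM_001174127 stood at 3.81 and 4.29 in miR-28CT and 4.47 and 4.70 in miR-28BIO (log2 fold change 0.01), while NM_001174130 stood at 4.17 and 3.86 in miR-28CT and at 0 in both miR-28BIO libraries. All 7 genes called with the block kept their sign when each library was left out in turn, in fits without the block. The size rested on single libraries in 4 of them. SLC31A2 was 1.81 without miR-28BIO replicate 2 and 4.21 without miR-28BIO replicate 1. SLC22A5 was 0.93 without miR-28CT replicate 1 and 2.01 without miR-28CT replicate 2. SLC48A1 was 0.45 and 0.55 without miR-28CT replicate 1 or miR-28BIO replicate 2, and 2.32 and 2.21 without miR-28CT replicate 2 or miR-28BIO replicate 1. SLC25A5 was −0.78 without miR-28CT replicate 2 and −2.28 without miR-28CT replicate 1.

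The genes were then read by what they carry, in groups set by family number. Counts of genes with separated arms are given as shares of each group, to be read against 12.4% above and 12.8% below over all tested genes, and nothing particular to a group is drawn from them. With FPKM as deposited every group median moved up, as did that of all genes. Metal carriers (22 genes) had a median log2 fold change of 0.11, with the arms separated in 7 genes above (31.8%, against 12.4% of all tested genes) and 4 below (18.2%, against 12.8%). SLC31A1, the plasma membrane copper importer and the other member of its family, had FPKM of 1.15 and 2.53 in miR-28CT and 2.12 and 5.17 in miR-28BIO. It was higher in both pairs by 0.84 and 0.66 log2 units and was not called. Of the 6 SLC30 genes, most of which move zinc out of the cytosol, SLC30A4, SLC30A5, SLC30A6 and SLC30A7 had both miR-28BIO libraries above both controls and SLC30A9 had both below. SLC30A7, a carrier of the early secretory pathway, had 6.01 and 3.25 against 8.17 and 7.19, and SLC30A9 had 17.1 and 10.6 against 12.2 and 9.03. None of the SLC30 genes was called. The 10 SLC39 genes, most of which move zinc into the cytosol, had a median of −0.15 (0.02 with FPKM as deposited). Of these 10, 6 were lower in both pairs (60%, against 39.9% of all tested genes) and 2 higher in both (20%, against 30.7%). SLC39A6, the most abundant of them in miR-28CT replicate 1, had FPKM of 63.0 and 16.2 in miR-28CT and 55.3 and 27.7 in miR-28BIO. The arms overlapped in it, and the replicates of each arm differed more than the arms did.

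The SLC25 family (33 genes), most of them carriers of the inner mitochondrial membrane but with the peroxisomal carrier SLC25A17 among them, had the lowest median of the 9 groups, at −0.34, or −0.18 with FPKM as deposited. The arms were separated in 4 genes above (12.1%, against 12.4% of all tested genes) and 6 below (18.2%, against 12.8%). Of the 33, 17 were lower in miR-28BIO in both replicate pairs and 5 higher in both, while over all tested genes 39.9% were lower in both and 30.7% higher in both. SLC25A15, the ornithine carrier, had 3.69 and 4.21 in miR-28CT and 2.02 and 2.94 in miR-28BIO, with both miR-28BIO values below both controls. SLC25A11, the oxoglutarate carrier, had 9.61 and 31.8 against 5.23 and 12.2 and was lower in both pairs, by 0.85 and 1.72 log2 units, with overlapping arms (limma adjusted p with the block 0.0765, and 0.0432 with FPKM as deposited). Its log2 fold change of −1.29 was −0.27 without miR-28CT replicate 2 and −2.31 without miR-28CT replicate 1. SLC25A46, an outer membrane protein of the family linked to mitochondrial dynamics, stood on the other side, with 8.48 and 3.74 against 16.7 and 13.7 (log2 fold change 1.24, limma adjusted p with the block 0.0578, and 0.0230 with FPKM as deposited). Its log2 fold change was 0.82 without miR-28CT replicate 2, and all 4 of its FPKM lay outside the intervals that Cufflinks gave them. The phosphate carrier SLC25A3 had the highest mean FPKM of all members, with 76.8 and 158 in miR-28CT and 61.2 and 147 in miR-28BIO, where the arms overlapped. With the block and scaled FPKM, SLC25A5 was the one SLC25 gene called, and with the block and FPKM as deposited SLC25A11 and SLC25A46 were called as well.

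**Figure D3:**
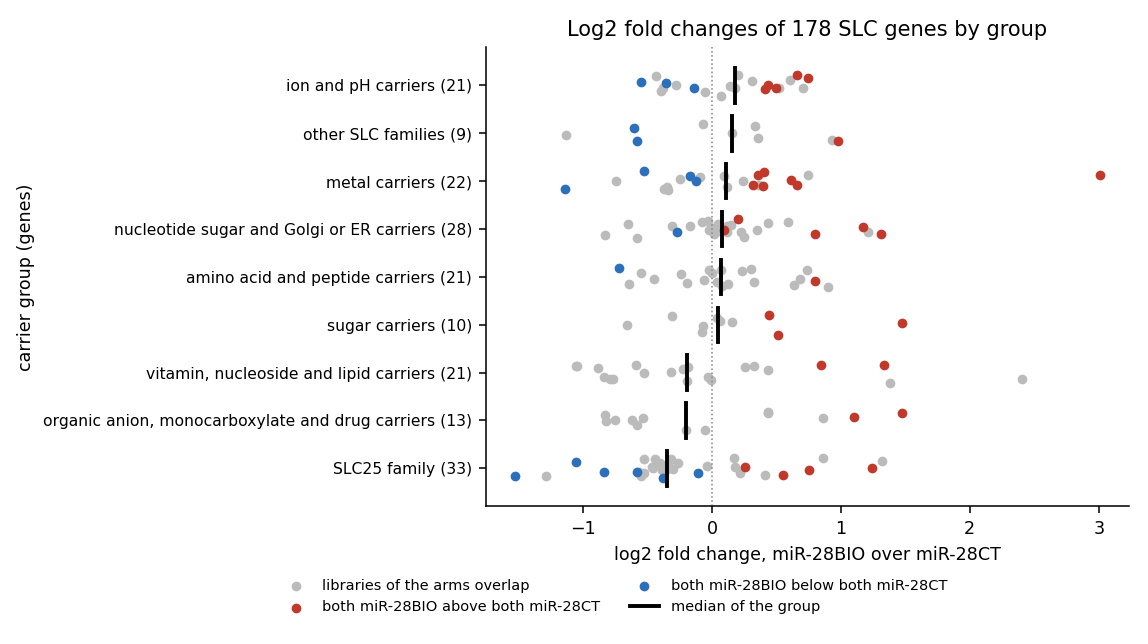
Each point is the log2 fold change of 1 SLC gene, miR-28BIO over miR-28CT, in rows by what the family carries, with a black bar at the median of the row and colour showing whether both miR-28BIO libraries lay above (red) or below (blue) both miR-28CT libraries after scaling. The row medians run from −0.34 in the SLC25 family to 0.18 in ion and pH carriers, and the points of every row lie on both sides of 0.

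Amino acid and peptide carriers (21 genes) had a median of 0.07, with the arms separated in 1 gene above and 1 below (4.76% each). The gene above was SLC38A9, a lysosomal arginine sensor, with FPKM of 2.76 and 2.95 in miR-28CT and 5.00 and 6.46 in miR-28BIO. The gene below was SLC15A4, a lysosomal histidine and peptide carrier, with 4.08 and 4.43 against 2.46 and 3.31. SLC7A5, the large neutral amino acid carrier, had 15.7 and 52.5 in miR-28CT and 22.8 and 111 in miR-28BIO. Its partner SLC3A2, the heavy chain that holds it at the membrane, had 20.9 and 84.0 against 15.1 and 68.8, so that SLC7A5 was higher in both pairs and SLC3A2 lower in both. SLC7A11, the cystine carrier that shares this partner, had 8.78 and 3.61 against 11.9 and 8.83. The glutamine carriers SLC1A5 (log2 fold change −0.00) and SLC38A2 (−0.03) lay near 0.

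The sugar carriers (10 genes, median 0.05) had the arms separated in 3 genes above (30%), SLC50A1, SLC2A13 and SLC5A3, and in none below. SLC2A1, the glucose importer, had FPKM of 5.35 and 15.0 in miR-28CT and 6.25 and 20.1 in miR-28BIO, with overlapping arms. Among the lactate carriers, SLC16A1 had 15.3 and 6.90 against 13.8 and 9.02, and SLC16A3 had 18.7 and 113 against 8.63 and 98.8. In SLC16A3 both replicate 2 libraries were far above both replicate 1 libraries. None of the 9 genes listed for tumor metabolism (SLC1A5, SLC2A1, SLC3A2, SLC7A5, SLC7A11, SLC16A1, SLC16A3, SLC25A1 and SLC38A2) was called or had separated arms. They numbered 3 higher in both pairs (33.3%, against 30.7% of all tested genes) and 4 lower in both (44.4%, against 39.9%).

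The nucleotide sugar and Golgi or endoplasmic reticulum carriers (28 genes) had a median of 0.08, with 5 separated above (17.9%) and 1 below (3.57%). The 23 SLC35 genes among them, the family of SLC35D1, had a median of 0.06. In this family 10 were higher in both pairs (43.5%, against 30.7% of all tested genes) and 3 lower in both (13%, against 39.9%). In the other 10 the pairs were of opposite sign, as in 28.1% of all tested genes. Besides SLC35D1, the arms were separated in SLC35G1 (2.68 and 3.02 against 5.37 and 10.1), SLC35D4 (3.47 and 4.00 against 5.41 and 10.0) and SLC35B4 (2.28 and 2.10 against 2.95 and 2.75), all above. SLC35G1 had a limma adjusted p of 0.0578 with the block and 0.0279 with the block and FPKM as deposited, and its log2 fold change was 0.75 without miR-28BIO replicate 2. The remaining SLC35 genes ranged from −0.83 in SLC35B3 to 0.59 in SLC35A5.

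Ion and pH carriers (21 genes) had the highest median, at 0.18, with 5 separated above (23.8%) and 3 below (14.3%) and none called. SLC20A1, a sodium-coupled phosphate carrier, had FPKM of 12.6 and 9.54 in miR-28CT and 20.4 and 18.7 in miR-28BIO. SLC12A2, a sodium, potassium and chloride cotransporter, had 2.11 and 1.75 against 1.90 and 2.02, which after scaling put both miR-28BIO libraries below both controls by 0.13 and 0.14 log2 units. Organic anion, monocarboxylate and drug carriers (13 genes) had a median of −0.20 (−0.03 with FPKM as deposited) with 2 separated above (15.4%), SLC22A5 and the lysosomal sialic acid exporter SLC17A5 (0.948 and 0.624 against 1.41 and 2.77). Vitamin, nucleoside and lipid carriers (21 genes) had a median of −0.19 (−0.02 with FPKM as deposited), with SLC44A1 and its relative SLC44A2 (2.97 and 4.09 against 5.44 and 9.35) separated above (9.52%). The 3 SLC66 genes, carriers of the PQ-loop type, were placed in this group by family number only. Each was lower in both pairs (median −0.84), as were 39.9% of all tested genes. Each was also higher in replicate 2 than in replicate 1 in both arms, as were 42.8% of all tested genes. In the 9 genes of other families the median was 0.16, with 1 separated above (11.1%) and 2 below (22.2%).

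Of the prostate genes of interest, SLC45A3, a luminal prostate marker known as prostein, had FPKM of 0.315 and 1.34 in miR-28CT and 0.437 and 0.808 in miR-28BIO. SLC39A1 had 41.8 and 31.6 against 33.9 and 39.2, which after scaling lay below both controls by 0.29 and 0.05 log2 units. SLC30A4 had 0.801 and 0.748 against 1.27 and 1.10. None of these differences was called.

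Other transport proteins were counted in the same way from lists of gene names. The 21 ABC transporters had a median log2 fold change of 0.05 with 4 separated above (19%) and 1 below (4.76%). The 21 P-type ATPases had 0.08, with 4 above (19%) and 2 below (9.52%). The 20 carriers outside the SLC symbol pattern had −0.18, with 3 above (15.0%) and 2 below (10.0%), and the 5 carrier accessory proteins had −0.23, with 1 above (20.0%). In these 4 lists limma called no gene with the block, while over all tested genes 2.51% were called higher and 2.01% lower. At such shares few calls would fall in lists of 5 to 21 genes. The 17 subunits of the V-ATPase, the proton pump of lysosomes, had the lowest median of the lists, at −0.46, or −0.29 with FPKM as deposited. In it the arms were separated in 3 genes above (17.6%, against 12.4% of all tested genes) and 6 below (35.3%, against 12.8%), and 2 genes were called higher with the block (11.8%, against 2.51%), while the median lay below 0.

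The spread between replicates exceeded the difference between arms in most SLC genes. The mean difference of replicate 2 from replicate 1 was larger in size than the log2 fold change in 127 of 178 genes (71.3%, and 71.3% of all tested genes). Replicate 2 was above replicate 1 in both arms in 113 SLC genes (63.5%, against 42.8% of all tested genes) and below it in both in 40 (22.5%, against 42.1%). The median difference was 0.67 log2 units in SLC genes and 0.01 over all genes. Libraries of the same number were the more alike over the 178 genes (Pearson r 0.937 in replicate 1 and 0.873 in replicate 2) than libraries of the same arm (0.727 in miR-28CT and 0.687 in miR-28BIO), as a description over genes that share the libraries.

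The GC content of the transcript moved with the replicate difference. The median GC was 56.23% in the genes higher in replicate 2 in both arms and 40.05% in those lower in both. The correlation of GC with the replicate difference was r = 0.753 (rho 0.785) over 178 SLC genes and 0.645 over 10384 tested genes with a sequence. GC and log2 fold change between the arms had r = −0.245 in SLC genes and −0.203 in all genes. SLC genes had a median GC of 49.8%, against 47.6% over all genes. The part of GC content in the differences of single genes was not tested.

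**Figure D4:**
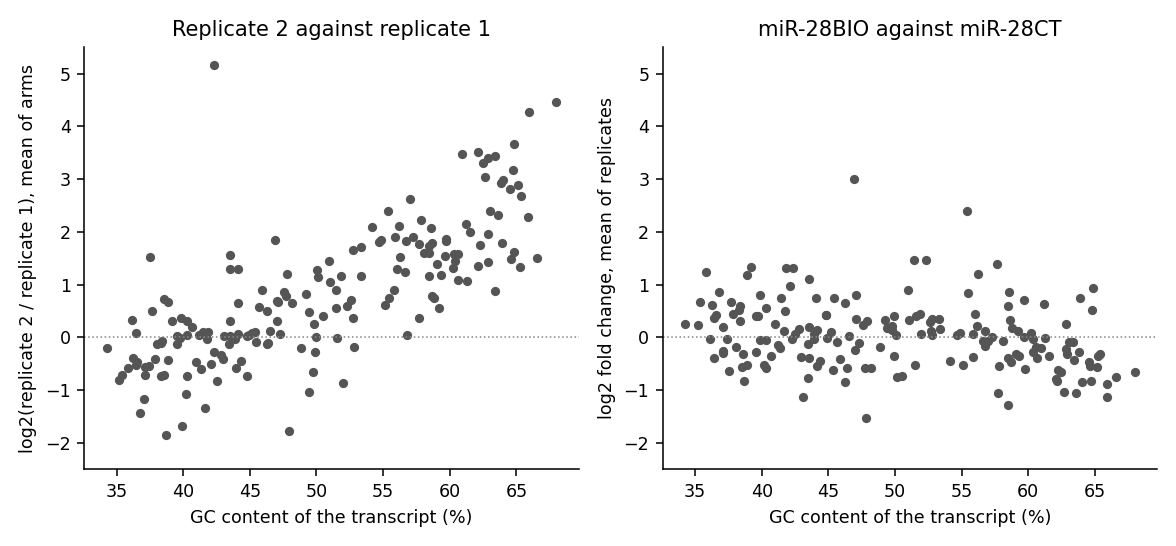
GC content of the canonical transcript in percent (horizontal axis) of 178 SLC genes against the log2 ratio of replicate 2 to replicate 1, averaged over the arms (left), and against the log2 fold change of miR-28BIO over miR-28CT (right), on the same vertical scale. The points climb with GC on the left (r = 0.753) and form a flatter cloud on the right (r = −0.245).

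The 7-base motif was in the 3′UTR of 35 SLC genes (19.7%, against 15.6% of 10384 genes), once in 28, in 2 copies in 6 and in 3 copies in 1. The gene with 3 copies was SLC44A1, at positions 2939, 6802 and 7434 of a 3′UTR of 8290 bases. The median log2 fold change was 0.33 in SLC genes with the motif and −0.05 in the 143 without it, against 0.15 and −0.12 over all genes. The medians lay in the same order in each replicate pair, at 0.28 with and 0.00 without in pair 1 and at 0.23 and −0.08 in pair 2. Without the targetome members, which the study chose on these libraries, they were 0.31 and −0.06. In contrast, the share with both miR-28BIO libraries above both controls was 17.1% with the motif (6 of 35) and 16.8% without it (24 of 143), while over all genes it was 21.3% and 10.8%. Genes with the motif had longer 3′UTRs, with a median of 2658 bases against 1413, and the log10 length had r = 0.235 with the log2 fold change in SLC genes and 0.306 in all genes.

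Among the 7 SLC genes called with the block, SLC31A2, SLC48A1 and SLC44A1 held the 7-base motif in the 3′UTR. SLC22A5 held the 6-base motif there, and SLC50A1, SLC25A5 and SLC11A2 held neither. The 6-base motif was in the 3′UTR of 80 SLC genes (44.9%, against 35.6% of all genes), with a median log2 fold change of 0.15, against −0.09 in the 98 without it. In the coding sequence the 7-base motif was found in 21 SLC genes (11.8%, against 19.7% of all genes), SLC35D1 among them, with a median log2 fold change of 0.06, against −0.01 in the 157 without it. A match of these letters is a description of the sequence and not a measured site.

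At the level of transcripts, values were less stable than the gene sums. Of 259 member transcripts, 108 were listed at 0 in at least 1 library (41.7%, against 36.2% of all tested transcripts). In 38 transcripts both libraries of 1 arm were at 0, 21 of them in miR-28BIO and 17 in miR-28CT, and 36 of the 38 belonged to genes with several tested transcripts. A transcript that passed the minimum through 1 arm had to differ, so these counts are no evidence of a change. Tested transcripts of the same gene had log2 fold changes of both signs in 45 of 56 genes. In SLC50A1, NM_001287586 stood at 12.9 and 6.94 in miR-28CT and 41.2 and 0 in miR-28BIO, and NM_018845 at 0 and 14.5 against 8.00 and 71.7, while the gene sum was higher in both pairs. In SLC16A3, NM_001042423 was listed at 0 in both miR-28CT libraries and at 8.63 and 15.8 in miR-28BIO, with a gene sum that was lower in both pairs.

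The Cufflinks intervals of the arms were apart in 20 member transcripts above (7.72%, against 6.63% of all tested transcripts) and 15 below (5.79%, against 4.38%), shares near the background. Some of these transcripts were listed at 0 in both libraries of 1 arm, as in SLC16A3 above and SLC11A2 below. They passed the minimum through the other arm only, so these counts too are no evidence of a change. These intervals did not always hold the FPKM beside them, since 134 of the 1036 values of member transcripts (12.9%) lay outside their own interval. Among them in miR-28BIO replicate 2 were SLC31A2 (28.6, interval 20.9 to 25.6), SLC48A1 (20.4, interval 10.4 to 12.9) and SLC7A5 (111, interval 43.8 to 48.5).

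3 genes had a high value in miR-28BIO replicate 2 alone. SLC29A1, the equilibrative nucleoside carrier, was listed at 0 in the other 3 libraries and at 2.94 in that one, which alone took it past the minimum. SLC25A17, a peroxisomal carrier, stood at 0 and 1.13 in miR-28CT and at 0 and 9.58 in miR-28BIO. SLC37A4, the glucose 6-phosphate carrier of the endoplasmic reticulum, stood at 1.46 and 1.40 in miR-28CT and at 1.37 and 10.5 in miR-28BIO. None was called, and none had a difference of this size in pair 1.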

How the data were processed

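The authors trimmed adapters (cutadapt), checked reads (FastQC 0.10.1), aligned them to hg38 with TopHat2 2.0.9 and estimated transcript abundance with Cufflinks 2.1.1, per the study's methods and the submitters' processing notes, and for each library they deposited FPKM with interval bounds, status and coverage of 53209 RefSeq transcripts. No FPKM column was pooled. Reads per transcript were estimated here from the deposited coverage signal times length over 50. Members drew an estimated 65587 to 94728 reads per library, and such estimates cover counting error only.

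FPKM, not counts, were scaled by median-of-ratios (factors 0.850 to 1.09), summed per gene over NM_ transcripts with status OK, and tested on log2(FPKM + 0.1) with limma 3.58.1 (lmFit, eBayes with trend; R 4.3.3) over all genes with a mean of at least 0.5, with Benjamini-Hochberg adjustment and a threshold of 0.05. A fold change on this scale understates that of low genes. The scripts were tested on simulated data. Symbols came from RefSeq (GRCh38.p14, 98.4% of tested transcripts matched) and sequences from GENCODE 44, which matched all 178 members, 13 through an older symbol.

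Libraries of the same number were treated as pairs: the labels number them alike, the study describes 2 biological replicates, and over 10517 genes the replicate differences of the arms correlated (r = 0.734). The groups, lists and members were chosen with earlier results of these data known. Genes named were the targetome members and their families, the 5 highest and 5 lowest with separated arms, the 8 most abundant, the metabolism and prostate lists, and any called in a fit (53 genes), with other genes added after their values were seen. Alternatives were the pseudocount, filter, scaling, trend, block, transcript choice and leaving out each library. Some of the genes the lists and rules name are not reported here.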

Additional observations from a re-analysis of the deposited data

How the results depend on the processing

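Across the alternatives without the block, limma called 0 SLC genes and 0 SLC transcripts. With the replicate block, which pairs libraries of the same number, it called 5 genes higher and 2 lower and 0 transcripts. Chosen after seeing the data, the block was also combined with FPKM as deposited (8 higher, 2 lower, or 4.49% and 1.12%, against 4.70% and 3.10% of all tested genes), upper-quartile scaling (6 and 1, or 3.37% and 0.562%, against 2.87% and 1.97%) and a pseudocount of 1 (3 and 0, or 1.69% and 0%, against 2.40% and 1.69%). Combined with eBayes without trend, or with the most abundant transcript in place of the sum, it called 0 in either direction, among all genes too. SLC50A1, SLC22A5 and SLC48A1 were called in 4 of the 6 block fits, SLC31A2, SLC44A1 and SLC25A5 in 3, SLC35D1 in 2, and SLC11A2, SLC25A11, SLC25A46 and SLC35G1 in 1. Cufflinks intervals of the 2 arms were apart in 20 transcripts above (7.72%, against 6.63% of all tested transcripts) and 15 below (5.79%, against 4.38%). Some of these passed the minimum through 1 arm only.

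Genes with separated arms numbered 16 above (19%, against 12.1% of all genes at this level) and 9 below (10.7%, against 16.4%) among the 84 with a mean FPKM of at least 5, and 3 and 1 (1.69% and 0.562%, against 2.20% and 0.818% of all tested genes) with a margin of 2-fold. With FPKM as deposited, 11 were below (6.18%, against 8.56%). Leaving out 1 library gave 46 to 80 above (25.8% to 44.9%, against 24.7% to 32.8% of all tested genes). It gave 31 to 81 below (17.4% to 45.5%, against 28.7% to 38.5%). Of the SLC genes 44.9% were above without miR-28CT replicate 2 (26.7% of all genes) and 26.4% without miR-28CT replicate 1 (32.8%), so that the side of the background on which they lay depends on single libraries. The median of the SLC genes was 0.17 with FPKM as deposited. Over all genes the median lay between −0.052 and −0.045 in the 4 fits that left out a library. That of the SLC genes was −0.28 without miR-28CT replicate 1, 0.45 without miR-28CT replicate 2, 0.35 without miR-28BIO replicate 1 and −0.22 without miR-28BIO replicate 2, so its sign depends on single libraries.

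Of the 53 named genes, log2 fold changes changed sign as follows, and the cause was not tested. With FPKM as deposited they were SLC16A1 0.12, SLC1A5 0.17, SLC35A2 0.14, SLC35A3 0.13, SLC35G2 0.085, SLC38A2 0.15, SLC39A1 0.0032. With upper-quartile scaling they were SLC16A1 0.022, SLC1A5 0.071, SLC35A2 0.047, SLC35A3 0.040, SLC38A2 0.049. With a pseudocount of 1 they were SLC35B2 −0.00039, SLC35C1 −0.038. With the most abundant transcript they were SLC11A2 0.0079, SLC1A5 0.16, SLC35A1 0.42, SLC35A2 0.33, SLC35A3 1.57, SLC35B2 −0.031, SLC35G1 −1.20, SLC39A1 0.33. Leaving out each library changed the sign of 29 genes, none of which was called, over these ranges: SLC16A1 −0.46 to 0.36, SLC16A3 −2.55 to 0.91, SLC1A5 −0.62 to 0.61, SLC25A1 −1.99 to 1.07, SLC25A3 −1.07 to 0.29, SLC25A39 −1.42 to 0.73, SLC2A1 −0.74 to 1.05, SLC35A1 −0.74 to 0.12, SLC35A2 −0.96 to 0.90, SLC35A3 −0.25 to 0.19, SLC35A4 −0.98 to 1.21, SLC35B2 −1.03 to 1.03, SLC35B3 −2.20 to 0.54, SLC35C1 −1.07 to 1.09, SLC35E1 −0.19 to 1.06, SLC35E3 −0.21 to 0.49, SLC35E4 −0.76 to 1.26, SLC35F2 −0.074 to 0.12, SLC35F3 −0.38 to 0.49, SLC35F5 −0.35 to 0.0050, SLC35F6 −0.29 to 0.99, SLC35G2 −0.41 to 0.25, SLC35H1 −0.90 to 0.99, SLC38A2 −0.30 to 0.25, SLC39A6 −0.70 to 0.93, SLC3A2 −1.71 to 0.62, SLC45A3 −1.35 to 0.73, SLC75A1 −1.03 to 2.89, SLC7A5 −0.49 to 1.76. The other 24 kept their sign. With 2 libraries per arm and a median of 144 to 264 estimated reads per gene and library, small differences in low genes cannot be resolved.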
